A study of Mus musculus with 12 samples.

Results

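The Myc family and its partners were followed through the ESC to EpiLC transition in 8 genes: Myc, Mycn, Mycl, Max, Mxd3, Mxd4, Mnt and Mga. They were taken by gene symbol from a table of 22462 genes, and every one of the 8 was found. The rule used no measured value, but the genes were picked with earlier results of these data known. Mouse embryonic stem cells (ESCs) were set against epiblast like cells (EpiLCs) by ribosome profiling, which sequences the mRNA stretches that a ribosome covers and so protects from nuclease (RPFs). Total RNA of the same cell types was sequenced beside them and is called mRNA where its change is given. The question was whether mRNA levels, translation or both change as naive cells move toward the formative state. ESCs were kept in medium with 15% fetal bovine serum, the cytokine LIF and the 2i inhibitors PD0325901, which blocks the kinase MEK, and CHIR99021, which blocks the kinase GSK3. EpiLCs were the same cells collected about 56 hours after LIF and 2i were taken away, so that the cell type and the medium cannot be told apart. The line used for differentiation was a V6.5 ESC line with miR290-mCherry and miR302-GFP reporters, 1 line in all, and no group carried a deletion.

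There were 4 groups of 3 libraries: ESC total RNA, EpiLC total RNA, ESC RPF and EpiLC RPF. Total counts of the total RNA libraries ranged over 11491044 to 13477432 (ESC) and 6188838 to 14655015 (EpiLC), and those of the RPF libraries over 4777262 to 11359352 (ESC) and 2681439 to 5413144 (EpiLC). Levels are given as CPM, the counts of a gene scaled to a common library total with TMM factors (0.961 to 1.02), and 3 counts, taken as the smallest count to be read as a level, equalled 0.205 to 1.12 CPM of the unscaled totals. The labelled cell types were checked on markers. The summed total RNA level of 4 naive markers (Zfp42, Esrrb, Klf4 and Tbx3) was 1004 to 1130 CPM in ESCs and 42.1 to 68.6 CPM in EpiLCs, while that of 4 formative and primed markers (Dnmt3b, Otx2, Fgf5 and Pou3f1) went from 107 to 196 CPM up to 1107 to 1191 CPM. 3 markers of pluripotency shared by both states (Pou5f1, Sox2 and Nanog) summed to 2154 to 2372 CPM in ESC and 1082 to 1242 CPM in EpiLC total RNA. By the limits for calls given below, Sox2 and Nanog fell in both assays and Pou5f1 was not called. Markers of other cell types also moved: 12 markers of endoderm, mesoderm, neuroectoderm and fibroblasts summed to 20.6 to 24.3 CPM in ESC and 35.1 to 43.4 CPM in EpiLC total RNA, and to 34.5 to 44.7 and 69.6 to 77.6 CPM in RPF. Of these 12, 6 were abundant enough to be tested. Pax6, Thy1 and Col1a1 rose and Eomes fell in both assays, and Neurog2 had no count in any ESC total RNA library. A marker abundant in 1 cell type alone could enter the test through that cell type, so these calls are a description. The part of such cells in the results below was not tested, and in bulk samples fewer cells of a type and less RNA per cell cannot be told apart.

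MYC proteins are transcription factors that bind DNA only as dimers with MAX, at a short palindrome called the E-box, and that raise the expression of genes for ribosome production, metabolism and growth. MAX also pairs with the MXD proteins, MNT and MGA, which hold genes down at the same sites and thus compete with MYC. In mouse pluripotent cells MYC and MYCN are known to sustain growth and self renewal, and MGA is known as the DNA binding scaffold of a Polycomb complex, PRC1.6, that keeps germline genes silent.

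Myc itself rose most of the family, and this was seen at both levels. The gene (ENSMUSG00000022346.15, mm10 chr15:61987522-61989908, plus strand, 1320 nt of coding sequence counted in 2 exons) encodes the member found in most dividing cells. In ESC total RNA it stood at 1.24, 1.77 and 1.37 CPM in replicates 1, 2 and 3, from only 17, 21 and 16 counts. EpiLC total RNA held 20.7, 24.2 and 12.03 CPM, from 310, 151 and 105 counts. The 3 EpiLC libraries lay above the 3 ESC libraries, with replicate 3 the lowest of the EpiLC libraries. In RPF the levels were 5.0, 4.68 and 7.98 CPM in ESCs against 81.3, 91.3 and 90.6 CPM in EpiLCs, again without overlap. The ratio of the group means was 12.99 for total RNA (1.46 ± 0.276 to 19.0 ± 6.26 CPM, SD, n = 3 per group) and 14.9 for RPF (5.89 ± 1.82 to 87.7 ± 5.59 CPM). In a linear model over all 12 libraries (voom and limma, p adjusted over the 11750 genes tested), the log2 change of Myc was 3.63 ± 0.38 for mRNA (SE, adjusted p 7.61e-09) and 3.82 ± 0.25 for RPF (adjusted p 2.40e-12).

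Mycl rose as well, by much less. It encodes L-MYC (ENSMUSG00000028654.13, chr4:122996568-123000515, plus strand, 1062 nt counted in 2 exons). Its total RNA level was 14.9, 12.1 and 15.2 CPM in ESCs and 31.4, 32.05 and 31.97 CPM in EpiLCs. In RPF it was 16.4, 10.8 and 12.3 CPM in ESCs and 41.1, 31.2 and 30.2 CPM in EpiLCs. No ESC library reached the lowest EpiLC library in either assay. The log2 change was 1.17 ± 0.13 for mRNA (adjusted p 2.46e-08 in limma) and 1.37 ± 0.17 for RPF (adjusted p 2.26e-07), which put Mycl just above the limit of 1 used for calls. With each library left out in turn the mRNA change was 1.07 to 1.22.

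Mycn, which encodes N-MYC, is the member best known from embryonic tissue (ENSMUSG00000037169.15, chr12:12937006-12940348, minus strand, 1344 nt counted in 2 exons). It was at 56.7, 54.5 and 56.2 CPM in ESC and 54.7, 50.5 and 49.2 CPM in EpiLC total RNA. Its RPF level was 146, 128 and 126 CPM in ESCs and 139, 134 and 116 CPM in EpiLCs. The 2 cell types overlapped in both assays. The log2 change was -0.10 ± 0.09 for mRNA (adjusted p 0.322 in limma) and -0.05 ± 0.09 for RPF (adjusted p 0.624). Mycn has GC rich coding sequence (63.2% GC), and with a GC correction of each library the changes became -0.33 (adjusted p 0.000867) and -0.36 (adjusted p 0.000223), still within the fold limit. The plot of levels shows Myc climbing by more than a factor of 10 in both assays beside a level Mycn.

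**Figure D1:**
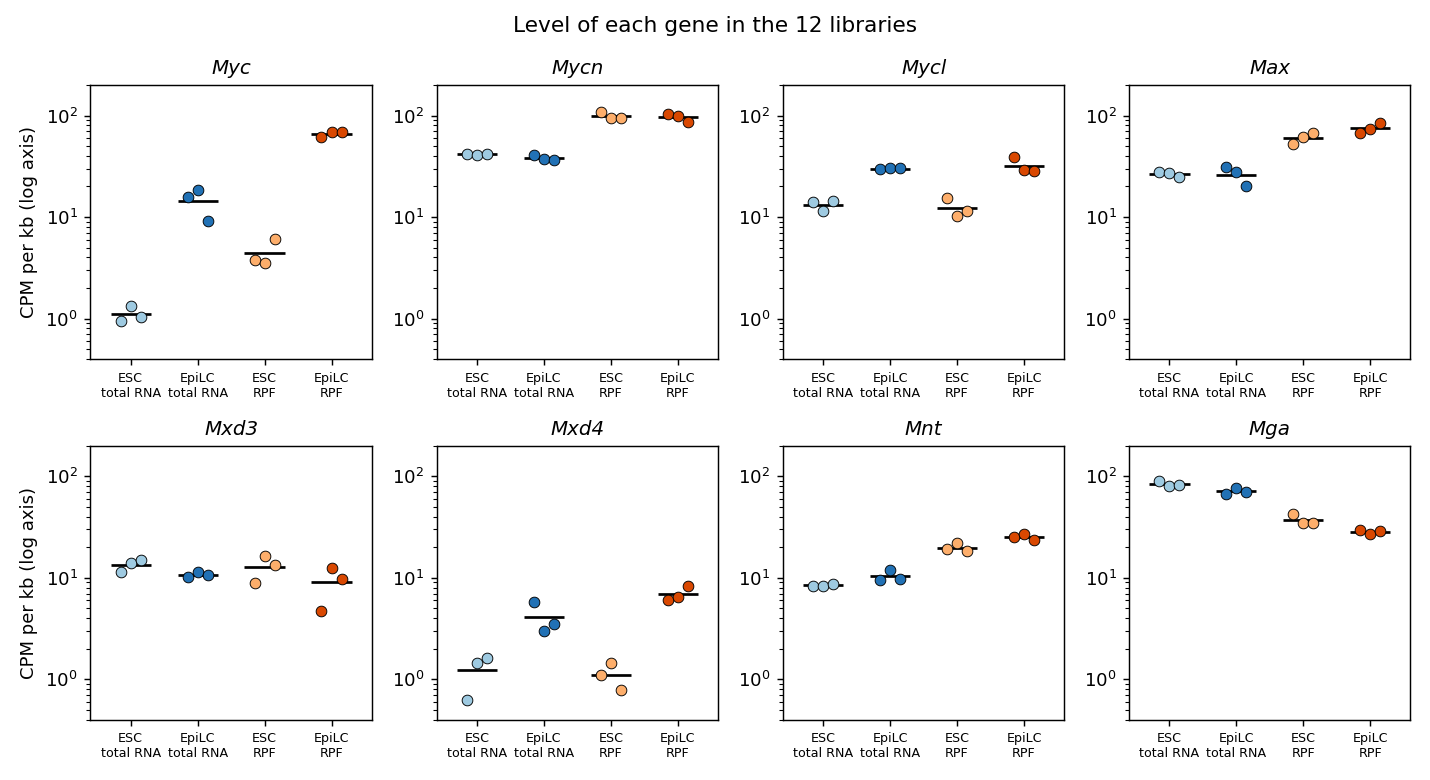
Level of each of the 8 genes in the 12 libraries, in CPM per kilobase of counted coding sequence on a log axis. Each dot is a library and each line the mean of a group (n = 3). In total RNA the Myc dots go from a mean of 1.11 in ESCs to 14.4 in EpiLCs, while those of Mycn stay near 41.5 and 38.3.

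Since the 3 family genes are related, it was asked whether reads could pass between them. Reads with more than 1 mapping position had been dropped, and the shortest RPF read kept was 26 nt. The longest exact stretches shared by the coding sequences of each pair are shown in capitals, with positions counted from the first base of the coding sequence, to show how alike the genes are at the length of a read:
Mycn 340-369: cagGACTGCATGTGGAGCGGCTTCTCtgcc
Mycl 274-303: cgtGACTGCATGTGGAGCGGCTTCTCcgcc
Myc 186-215: ggatATCTGGAAGAAATTCGAGCTGcttcc
Mycl 81-110: ggacATCTGGAAGAAATTCGAGCTGgtgcc
Myc 520-549: gacagcaccAGCCTGAGCCCCgcccgcggg
Mycn 1090-1119: aaagcgaagAGCCTGAGCCCCcgaaactca

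Mycn and Mycl shared at most 23 nt, Myc and Mycl 21 nt, and Myc and Mycn 12 nt. Over all 28 pairs of the 8 genes the longest run was the 23 nt of Mycn and Mycl, shorter than any RPF read kept. Mapping allowed mismatches, and stretches that match but for a mismatch, such as the one that runs on past the capitals of Mycn and Mycl, were not counted. Against the transcripts of all other genes, no 26 nt window of Myc, Mxd3, Mxd4, Mnt or Mga was found elsewhere. For Mycn it was 10 of 1319 windows (0.758%, all in Mycs) and for Mycl 22 of 1037 (2.12%). Max stood apart with 68 of 413 windows (16.5%), in several predicted genes, so that part of its short reads had more than 1 position and its levels are uncertain. The counted bases of the 8 genes were their own, with no overlap on the same strand.

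The makeup of the family thus moved from mostly Mycn to a mix. Levels were set per kilobase so that genes of different length could be compared. In ESC total RNA the 3 genes summed to 55.9 ± 2.24 CPM per kb (SD, n = 3), of which Mycn gave 74.3% ± 1.52, Mycl 23.7% ± 1.95 and Myc 1.99% ± 0.463. In EpiLC total RNA they summed to 82.6 ± 5.92 CPM per kb, with 46.4% ± 2.45 from Mycn, 36.4% ± 2.89 from Mycl and 17.2% ± 4.72 from Myc. By library the Myc share was 1.64%, 2.52% and 1.82% in ESCs and 18.2%, 21.3% and 12.03% in EpiLCs. Among RPFs Myc took a larger share still. It went from 2.96%, 3.26% and 5.43% in ESCs to 30.3%, 34.9% and 37.4% in EpiLCs, while Mycn went from 85.5% ± 1.67 to 49.4% ± 2.01 and Mycl from 10.6% ± 1.36 to 16.4% ± 2.24. The RPF sum was 116 ± 10.3 CPM per kb in ESCs and 195 ± 10.4 in EpiLCs, with no overlap between libraries.

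**Figure D2:**
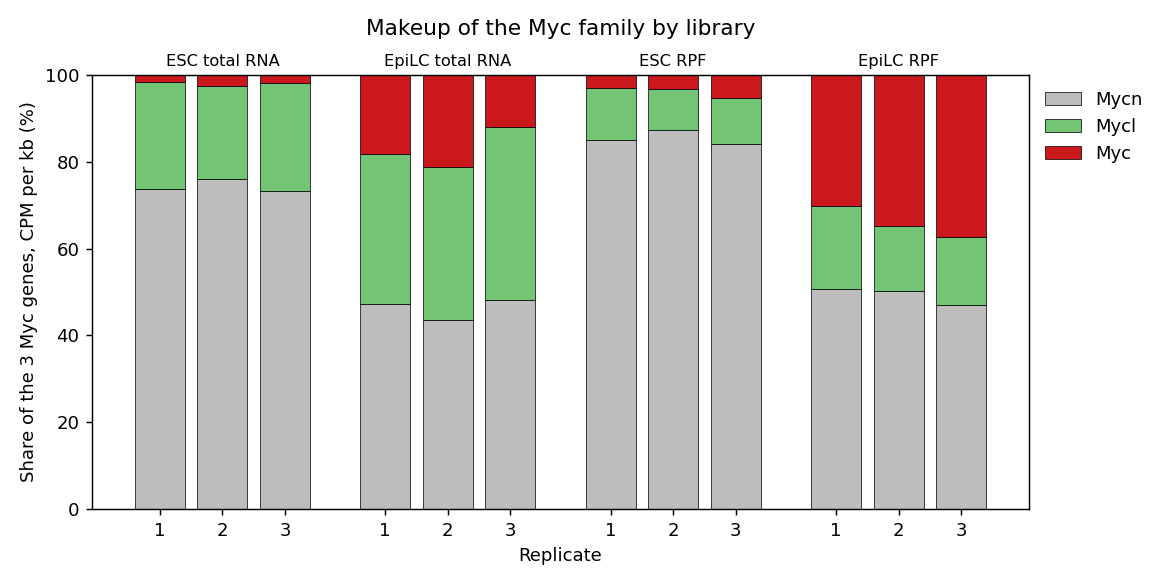
Share of Mycn, Mycl and Myc in the summed level of the 3 genes (percent of CPM per kb), 1 bar per library. Mycn makes up 73.2% to 76.0% of the ESC total RNA bars and 43.6% to 48.3% of the EpiLC total RNA bars, and the red Myc segment is largest in the EpiLC RPF bars, at 30.3% to 37.4%.

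The balance of Myc and Mycn was also taken as a ratio within each library, which does not depend on depth or scaling. Per kilobase, Mycn exceeded Myc 38.5 ± 7.52 times in ESC total RNA and 2.89 ± 1.01 times in EpiLC total RNA (SD, n = 3). In RPF it was 23.7 ± 7.14 and 1.46 ± 0.210 times. Mycn therefore remained the higher of the pair in all 12 libraries. On the log2 scale the Myc to Mycn ratio rose by 3.77 in total RNA (13.7-fold) and by 3.98 in RPF (15.8-fold). Every EpiLC library was above every ESC library in both assays, and a two-sided exact permutation test over the libraries gave p = 0.1, the smallest p that 3 against 3 libraries allow.

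Max encodes the partner that MYC proteins need to bind DNA and that the antagonists pair with as well, although MNT and MXD4 can also pair with MLX (ENSMUSG00000059436.13, chr12:76938568-76961280, minus strand, 438 nt counted in 4 exons). Its total RNA was 12.1, 11.97 and 10.97 CPM in ESCs and 13.5, 12.2 and 8.82 CPM in EpiLCs. The 2 groups overlapped, and the log2 change was -0.01 ± 0.17 (limma adjusted p 0.970). RPF stood at 22.9, 26.8 and 29.7 CPM in ESCs and 29.4, 32.3 and 37.2 CPM in EpiLCs, where the lowest EpiLC library fell just under the highest ESC library. The RPF change was 0.31 ± 0.15 (limma adjusted p 0.0772). With the GC correction it was 0.36 (adjusted p 0.0309), still within the fold limit. The summed level of the 3 Myc genes over that of Max, both per kb, was 2.10 ± 0.167 in ESC and 3.22 ± 0.496 in EpiLC total RNA. In RPF the same quotient was 1.95 ± 0.428 and 2.62 ± 0.435, with ranges that overlapped (1.64 to 2.44 and 2.16 to 3.03).

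Mxd4, which encodes an antagonist linked to cell cycle exit and differentiation (ENSMUSG00000037235.13, chr5:34176992-34187528, minus strand, 585 nt counted in 6 exons), was the least abundant of the antagonists. Its total RNA was 0.365, 0.843 and 0.943 CPM in ESCs, from 5, 10 and 11 counts, and 3.41, 1.76 and 2.06 CPM in EpiLCs, from 51, 11 and 18 counts. In RPF it had 5, 4 and 5 counts in ESCs (0.641, 0.851 and 0.459 CPM) and 17, 10 and 26 counts in EpiLCs (3.53, 3.80 and 4.88 CPM). All EpiLC libraries lay above all ESC libraries. The log2 change was 1.92 ± 0.45 for mRNA (adjusted p 0.000579 in limma) and 2.68 ± 0.53 for RPF (adjusted p 0.000113). Mxd4 reached the level needed to be tested (3 CPM in 3 libraries) only through EpiLC libraries. These were the 3 RPF libraries and total RNA replicate 1, so its RPF had to differ once it was tested. The mRNA contrast was not fixed in this way, but the gene was still picked through high EpiLC libraries. Neither call supports a count over the 8 genes.

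Mxd3, an antagonist usually found in S phase (ENSMUSG00000021485.13, chr13:55325783-55329622, minus strand, 576 nt counted in 6 exons), showed no call. In total RNA it was 6.56, 8.09 and 8.66 CPM in ESCs and 5.81, 6.57 and 6.07 CPM in EpiLCs. RPF counts were few, 40, 44 and 84 in ESCs and 13, 19 and 30 in EpiLCs, or 5.13, 9.36 and 7.71 against 2.70, 7.23 and 5.63 CPM. The groups overlapped in both assays, EpiLC RPF replicate 1 being the lowest library. The log2 change was -0.34 ± 0.22 for mRNA (adjusted p 0.179 in limma) and -0.60 ± 0.34 for RPF (adjusted p 0.125). With each library left out in turn the RPF change ran from -0.87 (without ESC RPF replicate 1, adjusted p 0.0268) to -0.21 (without EpiLC RPF replicate 1). With the GC correction (62.2% GC) it was -0.85 for RPF and -0.50 for mRNA (adjusted p 0.0288 and 0.0407), still within the fold limit.

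Mnt, the antagonist present in most cells at all stages of the cycle (ENSMUSG00000000282.12, chr11:74831374-74843320, plus strand, 1731 nt counted in 6 exons), was somewhat higher in every EpiLC library. Total RNA was 14.4, 14.5 and 15.2 CPM in ESCs and 16.6, 20.8 and 16.96 CPM in EpiLCs. RPF was 33.1, 38.3 and 31.7 CPM in ESCs and 43.3, 46.8 and 40.5 CPM in EpiLCs. These differences were small, with a log2 change of 0.26 ± 0.13 for mRNA (adjusted p 0.0831 in limma) and 0.36 ± 0.12 for RPF (adjusted p 0.0132). Mnt has the most GC rich sequence of the 8 genes (63.7% GC), and with the GC correction its changes were -0.00074 for mRNA and 0.015 for RPF (adjusted p 0.996 and 0.919).

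Mga is the longest of the 8 genes (ENSMUSG00000033943.15, chr2:119902718-119964965, plus strand, 9084 nt counted in 23 exons) and the one with the most counts. Its total RNA was 815, 724 and 748 CPM in ESCs and 614, 691 and 637 CPM in EpiLCs. In RPF the levels were 382, 315 and 314 CPM in ESCs against 271, 247 and 261 CPM in EpiLCs. Every EpiLC library was below every ESC library, by a small margin. The log2 change was -0.25 ± 0.06 for mRNA (adjusted p 0.000942 in limma) and -0.37 ± 0.08 for RPF (adjusted p 0.000534), within the fold limit. With the GC correction it was -0.25 for mRNA and -0.25 for RPF (adjusted p 8.71e-05 and 0.00253).

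Set together, the 4 antagonists summed to 107 ± 3.28 CPM per kb in ESC and 96.5 ± 5.26 in EpiLC total RNA, and to 70.9 ± 3.73 and 69.7 ± 3.88 in RPF, with Mga the largest term in each group. The Myc family over this sum was 0.521 in ESC and 0.857 in EpiLC total RNA, and 1.64 and 2.81 in RPF. Libraries of the 2 cell types did not overlap in either assay for this quotient. The sums add RNAs of proteins that need not act alike.

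Levels per kilobase put the 8 genes in different orders in total RNA and RPF. In ESC total RNA Mga came first at a mean of 83.9 CPM per kb, followed by Mycn at 41.5 and Max at 26.7. Mxd3 (13.5) and Mycl (13.3) overlapped between libraries, Mnt came next at 8.49, and Mxd4 (1.23) and Myc (1.11) were last and overlapped. In ESC RPF Mycn led at 99.1, ahead of Max at 60.5, Mga at 37.1 and Mnt at 19.8. Mxd3 (12.8) and Mycl (12.4) overlapped again, and Myc at 4.46 and Mxd4 at 1.11 came last. In EpiLCs Myc moved up in both assays. It reached 14.4 CPM per kb in total RNA, where its libraries overlapped those of Mxd3 (10.7) and Mnt (10.5), and 66.5 in RPF, where they overlapped those of Max (75.3) and only Mycn was higher beyond overlap (96.4). Mycl stood at 29.96 in EpiLC total RNA, overlapping Max at 26.2, and at 32.2 in EpiLC RPF, overlapping Mga at 28.6. The first places in EpiLC total RNA were held by Mga (71.2) and Mycn (38.3) and the last by Mxd4 (4.12), and at the lower end of EpiLC RPF stood Mnt (25.2) and, overlapping, Mxd3 (9.0) and Mxd4 (6.96).

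A gene was called changed at an adjusted p below 0.05 together with an absolute log2 change above 1. All 8 genes passed the filter on low levels, Mxd4 only through the EpiLC libraries in which it was high. Of the other 7, Myc and Mycl were called higher in the mRNA contrast, 2 of 7 where the share among all tested genes was 14.6%, and none was called lower, against 9.70%. In RPF it was again 2 of 7 (Myc and Mycl), against a share of 15.4%, with none lower, against 10.6%. Mxd4 was called higher in both contrasts and is left out of these counts, which over so few genes are a description. Beside the counts of 0, 1 gene, Mga, was lower at an unadjusted p below 0.05 in each assay, as were 32.2% (mRNA) and 30.8% (RPF) of all tested genes. Both edgeR and DESeq2 also called none lower. EpiLC and ESC libraries did not overlap for 5 of the 8 genes in total RNA and 5 in RPF. In both assays these were Myc, Mycl, Mxd4, Mnt and Mga. Mxd4 carries no weight in this count, since it was tested only through EpiLC libraries. Such separation was common, at 70.3% of all tested genes in total RNA and 63.1% in RPF. The 5 of 8 is thus near the background and a description.

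**Figure D3:**
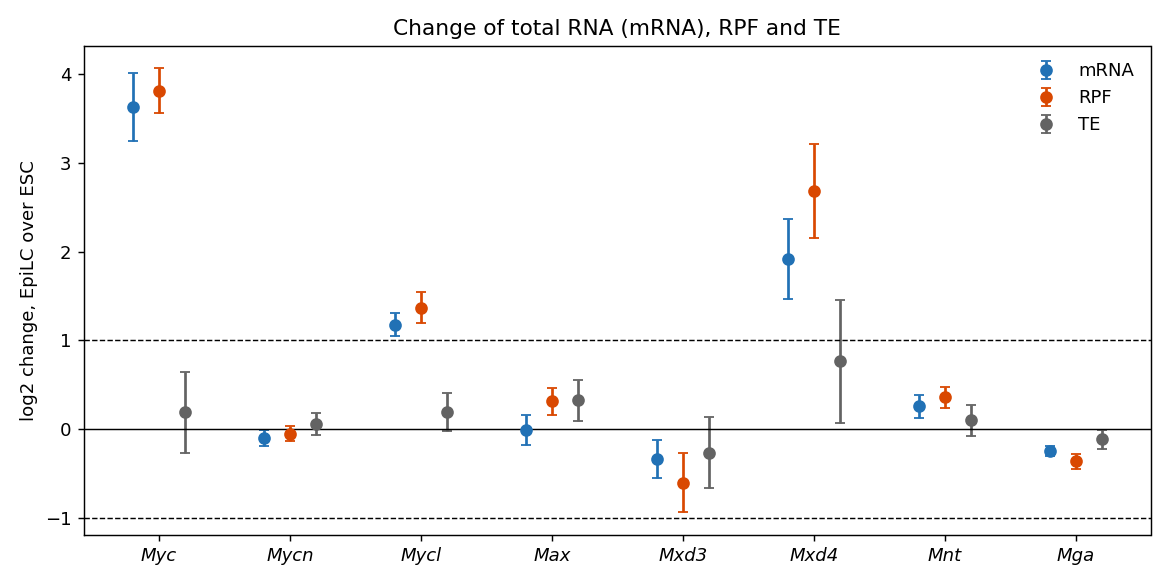
The log2 change from ESC to EpiLC of each gene for mRNA, RPF and translational efficiency (TE, the change of RPF beyond that of total RNA), with bars for the SE of the model over 12 libraries. Dashed lines mark the limit of 1 for calls. Myc (3.63 and 3.82), Mycl (1.17 and 1.37) and Mxd4 (1.92 and 2.68) lie above it for mRNA and RPF, and no TE change does.

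Translational efficiency, the ratio of RPF to total RNA, was examined next. As a change between cell types none of the 8 genes was called in either direction, where 0.255% of all tested genes were (0.136% higher and 0.119% lower, and 1.20% by adjusted p alone). None reached an unadjusted p of 0.05 in limma either (the smallest was 0.170, for Max), and edgeR and DESeq2 called none. The TE change of Myc was 0.19 ± 0.46 (SE, limma adjusted p 0.899), that of Mycn 0.05 ± 0.13 (adjusted p 0.895) and that of Mycl 0.19 ± 0.22 (adjusted p 0.753). Myc and Mxd4 had few ESC counts, and their wide errors (0.46 and 0.69) leave sizeable changes undetectable at this depth. For Max the change was 0.32 ± 0.23 (adjusted p 0.571), for Mxd3 -0.27 ± 0.40 (adjusted p 0.822), for Mxd4 0.76 ± 0.69 (adjusted p 0.674), for Mnt 0.10 ± 0.18 (adjusted p 0.860) and for Mga -0.12 ± 0.10 (adjusted p 0.656).

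As a level, in contrast, TE set the 8 genes far apart in each cell type. TE was computed per gene from libraries of the same number, with 0.5 CPM added, and is given as the geometric mean of 3 ratios and its percentile among the 11750 genes tested. The median gene had a TE of 0.984 in ESCs and 0.987 in EpiLCs. Myc was near the top, at 3.16, 2.28 and 4.53 in ESCs (geometric mean 3.20, percentile 98.8) and 3.86, 3.72 and 7.27 in EpiLCs (4.71, percentile 99.6). The cell types overlapped for Myc, since EpiLC replicates 1 and 2 were below ESC replicate 3. The 0.5 CPM added is large beside the ESC total RNA of Myc (1.24 to 1.77 CPM). It lowers the ESC ratios of Myc more than the EpiLC ones, so these 2 geometric means do not measure a change. Mycn was at 2.37 in ESCs (percentile 96.3) and 2.5 in EpiLCs (95.9), Max at 2.21 (95.0) and 2.82 (97.4), and Mnt at 2.28 (95.8) and 2.37 (95.1).

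Mga was the opposite case, with a TE of 0.469, 0.435 and 0.420 in ESCs and 0.441, 0.357 and 0.411 in EpiLCs, at percentiles 9.17 and 8.42. Mycl stood in the middle at 0.929 (percentile 45.7) and 1.06 (55.2), although its protein is of the same family as those of Myc and Mycn. Mxd3 was there too, at 0.936 (46.2) and 0.802 (36.1). Mxd4 rested on the fewest counts, at 0.959 (48.1) and 1.602 (82.3), with single ratios from 0.664 to 2.10. RPF reads were 26 to 32 nt long and total RNA reads at least 32 nt, so that TE as a level also compares reads of different length, which for Max bears on the windows shared with other genes.

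**Figure D4:**
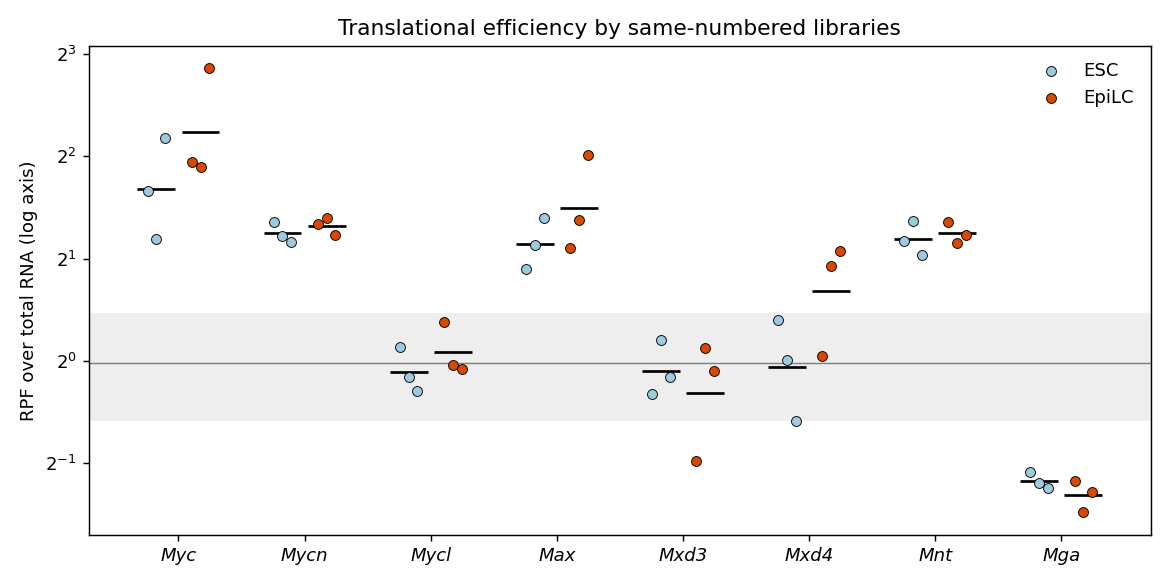
Translational efficiency, RPF over total RNA in libraries of the same number (log axis), for each gene in ESCs and EpiLCs. Dots are the 3 ratios, short lines their geometric mean, the grey line the ESC median of all tested genes (0.984) and the grey band their 25th to 75th percentile. Myc, Mycn, Max and Mnt lie above the band and Mga below it in both cell types.

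Of the genes that MYC is best known to drive, few were called. A list of 42 such genes was examined, most of them for ribosome production (Ncl, Npm1, Fbl), polyamine synthesis (Odc1) or metabolism (Ldha, Cad), and all 42 were tested. For mRNA 1 rose and 1 fell, 2 of 42 against a share of 24.3% among all tested genes, and the median log2 change was -0.05 against 0.03 for all genes. Ccnd2, a D-type cyclin, rose by 3.12 ± 0.52 (limma adjusted p 9.78e-06), and Shmt2, a mitochondrial enzyme of serine metabolism, fell by 1.12 on the log2 scale (SE 0.06, adjusted p 3.11e-14). The same 2 genes were called in RPF, where the share among all genes was 26.0%, with changes of 5.59 ± 0.64 and -1.15 ± 0.06 and a median over the list of -0.04 against 0.01. Ccnd2 had 4, 12 and 4 counts in ESC total RNA and 6, 0 and 2 in ESC RPF, against 59, 36 and 36 and 81, 27 and 62 in EpiLCs. As with Mxd4, only EpiLC libraries made Ccnd2 abundant enough to be tested. For Ccnd2 these were all EpiLC libraries of both assays, so it had to differ, and its fold depends on the 0.5 added to counts. The other 40 stayed within the fold limit in both assays. Counted by adjusted p alone, mRNA had 5 higher and 15 lower, and RPF 10 higher and 13 lower, where 65.4% and 59.8% of all tested genes passed. For TE none was called by limma, edgeR or DESeq2, and the list median was 0.09 against 0.01 for all genes. By adjusted p alone 1 of the 42 was higher for TE and 0 lower, where 1.20% of all tested genes passed. At an unadjusted p below 0.05 in limma 10 were higher and 1 lower for TE, against 6.89% and 7.02% of all tested genes. The list was chosen with earlier results known, so these counts are a description.

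Genes of the proteins through which the network acts were examined next. Of 15 coactivators and corepressors (among them Trrap, Kat5, Ep400, Sin3a and Hdac1), limma called none for mRNA or RPF, as did edgeR and DESeq2, where 24.3% and 26.0% of all tested genes were called. At an unadjusted p below 0.05 limma found 4 above and 8 below 0 for mRNA, with 4 above and 7 below for RPF. Over all tested genes 68.0% passed that limit for mRNA and 63.7% for RPF. The median mRNA change of the list was -0.12, and its lowest was that of Hdac1, a histone deacetylase, at -0.61. Of 5 other genes of the MAX and MLX network none was called by any of the 3 tools, a count that says little at those shares, with 1 higher and 1 lower at an unadjusted p below 0.05 in each assay. Mlxip, a glucose sensing partner of MLX, was the highest of them at 0.66 ± 0.11 for mRNA and 0.86 ± 0.15 for RPF (limma adjusted p 1.02e-05 and 2.01e-05). Of 10 genes that act on the stability of the MYC protein none was called by the 3 tools either, against the same shares of 24.3% and 26.0%. Plk1, a mitotic kinase, was the highest there, at 0.51 ± 0.07 for mRNA and 0.68 ± 0.07 for RPF. Gsk3b, a kinase that marks MYC for destruction and is the target of CHIR99021, was at -0.11 ± 0.09 for mRNA and -0.67 ± 0.12 for RPF (adjusted p 0.298 and 4.74e-05), and Fbxw7, the ubiquitin ligase subunit that reads this mark, at -0.02 ± 0.08 and -0.53 ± 0.20 (adjusted p 0.865 and 0.0218). At an unadjusted p below 0.05 this list had 2 genes above and 1 below 0 for mRNA, and in RPF 1 above and 4 below. These named genes were picked after their values were seen.

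Around Mga, the genes of PRC1.6 and germline genes were examined. The call of 1 of 10 PRC1.6 genes as higher, against shares of 14.6% for mRNA and 15.4% for RPF, was near the background. This gene was Yaf2, a homolog of Rybp that binds the RING proteins, which rose by 1.30 ± 0.16 for mRNA and 1.83 ± 0.28 for RPF (limma adjusted p 8.30e-08 and 3.27e-06). None fell in either assay in limma, edgeR or DESeq2, where 9.70% and 10.6% of all tested genes did. At an unadjusted p below 0.05 in limma 4 of the 10 were lower in each assay, where 32.2% (mRNA) and 30.8% (RPF) of all tested genes were. Wdr5 was the lowest, at -0.81 ± 0.08 for mRNA. Of 16 germline genes 15 were tested, and 8 rose and 4 fell for mRNA, 7 and 5 for RPF. The largest mRNA rises were those of Taf7l, a germ cell form of a general transcription factor subunit (2.56 ± 0.35, adjusted p 6.84e-07), and Tdrkh, a Tudor protein of the piRNA pathway (2.38 ± 0.22, adjusted p 8.73e-10). Stra8, the gene induced at meiotic entry, had the largest fall (-5.00 ± 0.52, adjusted p 7.01e-09), followed by Tuba3a, a testis tubulin (-2.46 ± 0.19, adjusted p 2.71e-11). The median of the list was 1.15 for mRNA and 0.63 for RPF. A gene expressed in 1 cell type alone could enter the test through that cell type, so the share of this list that was called carries no weight against the background of 24.3% and 26.0%. No gene of the 6 lists was called for TE by any of the 3 tools. At an unadjusted p below 0.05 in limma, TE was higher for 2 of 15 germline genes and lower for 3 of 10 turnover genes and 1 of 5 other network genes. It was neither for any PRC1.6 gene, coactivator or corepressor. Of all tested genes 6.89% were higher and 7.02% lower for TE at that limit.

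**Figure D5:**
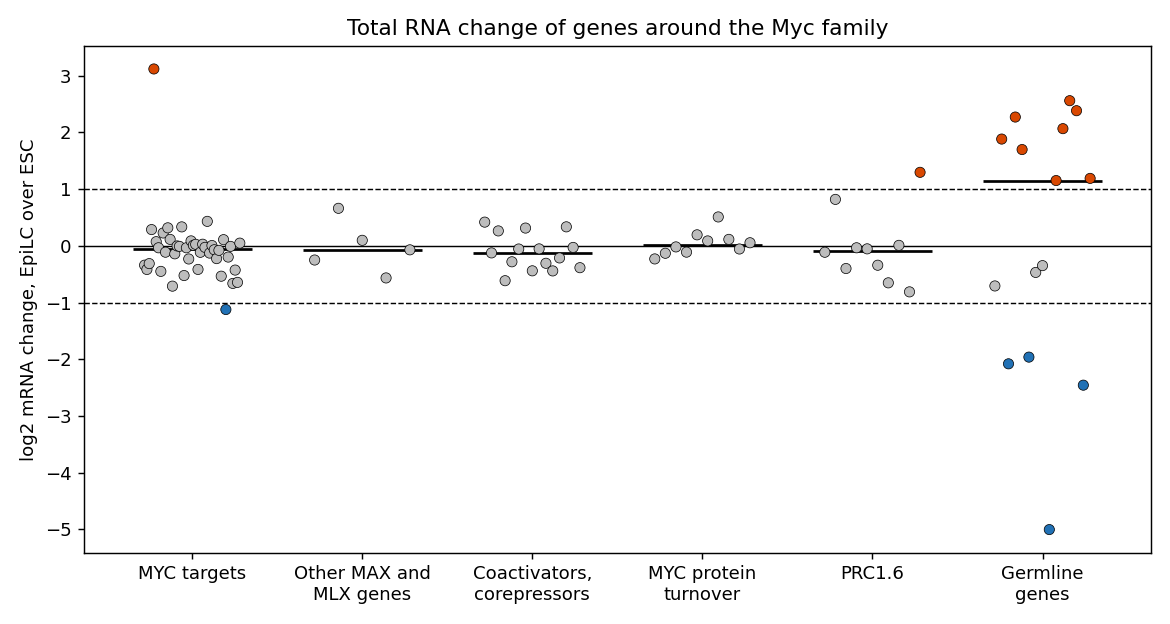
The log2 mRNA change from ESC to EpiLC of every tested gene in 6 lists around the Myc family. Orange dots were called higher, blue dots lower and grey dots not called. Lines are list medians and dashed lines the limit of 1. The 42 MYC targets lie close to 0 but for Ccnd2 (3.12) and Shmt2 (-1.12), and the germline genes spread from -5.00 to 2.56.

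Sequence at the start of the genes was looked at for the E-box CACGTG, the palindrome that MYC and MAX bind and that reads the same on both strands. RefSeq promoter windows on GRCm38.p6, from 250 bases before to 50 after a gene's start, held it in 2187 of 27025 genes (8.09%), and in 1134 of 9284 tested genes (12.2%). Of the 7 members with a window (all but Myc) 3 held it, Max, Mnt and Mxd4. It was present in 11 of 34 MYC targets (32.4%), 9 of 16 germline genes, 1 of 8 PRC1.6 genes, 1 of 13 coactivators and corepressors, 2 of 5 other network genes and none of 9 turnover genes. The windows below show the motif in capitals for the 3 members, for 3 germline genes called higher and for 1 MYC target that was not called for mRNA:
Max (chr12:76962234-76962263, minus strand): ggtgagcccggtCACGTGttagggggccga
Mnt (chr11:74830789-74830818, plus strand): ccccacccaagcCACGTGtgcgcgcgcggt
Mxd4 (chr5:34187912-34187941, minus strand): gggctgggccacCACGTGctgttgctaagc
Taf7l (chrX:134476522-134476551, minus strand): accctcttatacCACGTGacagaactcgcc
Sycp3 (chr10:88459511-88459540, plus strand): gccgttggctccCACGTGagaacgggcatg
Ddx4 (chr13:112652322-112652351, minus strand): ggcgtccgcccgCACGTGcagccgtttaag
Cdk4 (chr10:127063351-127063380, plus strand): atggcagccagtCACGTGccacacagcgta

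A match is a description of letters in a window and was not tied to binding in these cells. Of the 3 members with the motif, Max and Mnt were not called. Mxd4 was called higher, but it was tested only through EpiLC libraries. The 3 germline genes shown were picked from those called higher, while of the 9 with the motif 1 was called lower and 2 neither way for mRNA. Sycp3, a part of the meiotic chromosome axis, changed by 2.07 ± 0.17 for mRNA, Ddx4, the germ cell RNA helicase, by 1.88 ± 0.11, and Cdk4, a cell cycle kinase, by 0.07 ± 0.05 (limma adjusted p 7.43e-11, 1.51e-13 and 0.214).

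Last, the genes most like each family member across the 12 libraries were listed, by Pearson correlation of log2(CPM + 0.5). These points share 4 groups, their depths and the contrast of the 2 assays, so the values are a description. Closest to Myc were Klf6 (r = 0.992), Syt11 (0.992) and Carm1 (0.992). Closest to Mycn were Ptbp1 (0.994), Hes1 (0.993) and Banf1 (0.992), and closest to Mycl were Nfkbiz (0.978), Acsl4 (0.977) and Six4 (0.976). The lists of 3 for Myc and Mycn held different genes, which follows from the different courses of Myc and Mycn over these libraries. It adds no further result.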

How the data were processed

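The authors deposited raw counts per gene for 12 libraries, grouped and numbered by their titles. Per the study's methods, adapters were trimmed with cutadapt 1.14, RPF reads of 26 to 32 nt and total RNA reads of at least 32 nt were kept, reads with a single position were mapped with STAR 2.5.3a to mm10 and Gencode M14, and, per the file headers, featureCounts 1.5.3 counted the 5′ ends of sense reads on coding sequence without its first 45 nt. Duplicate removal is not stated, and floors of 3 counts cover counting error only. The study calls its replicates biological. It also describes the total RNA as matched to the RPFs. How cultures were divided among the numbered libraries is not stated in the sources used here. No pairing of RPF with total RNA was fitted other than the replicate block, which joined all 4 groups by number. The p-values measure the spread between these libraries. Same-group libraries differed beyond sampling noise in chi-square tests.

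Symbols were matched for 22385 of 22462 genes. Genes with at least 3 CPM in 3 libraries (11750) were scaled by TMM in edgeR 4.0.16 and fitted with voom and limma 3.58.1 in R 4.3.3, in 1 model with 4 group levels and no block, giving the mRNA, RPF and TE (interaction) contrasts. Tests were two-sided with Benjamini-Hochberg adjustment over 11750 genes. CPM levels in the text use TMM-scaled totals, and levels per kb are divided by counted length. GC content and shared windows came from Gencode M21 transcripts of the same assembly, with promoters from RefSeq. The steps were tested on simulated data. Alternatives were edgeR and DESeq2 1.42.0 tests, other scalings, filters, a GC correction (loess on coding GC within each library), a replicate block and leaving out each library.

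The members and lists were chosen with earlier results of these data known, the members by symbol alone. Genes given with values are all 8 members, the 2 called genes of each list with the largest rise and fall in total RNA, and the 3 genes most correlated with each family member. Mlxip, Hdac1, Plk1, Gsk3b, Fbxw7, Wdr5, Sycp3, Ddx4 and Cdk4 were given after their values were seen. Other list genes are named only as examples of a list or by their call. Some list genes are not reported here by name.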

Additional observations from a re-analysis of the deposited data

How the results depend on the processing

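The calls of Myc and Mycl as higher in mRNA and RPF were made under each alternative. Mxd4 was called higher too wherever it was tested. Under the filter used it entered the test only through EpiLC libraries, so its call still supports no count. A floor of 10 counts in every library left Mxd4 untested and thus 2 members called higher. Of the 20 counts and ratios recomputed, giving 432 values, 416 kept their direction or, for a count, stayed within 1.5 times the value reported. The other 16 were counts that moved further. Without a fold limit 1 member, Mga, counted as lower in mRNA and 1 in RPF, and Mnt passed for RPF (0.36). The called genes then numbered 20 (mRNA) and 23 (RPF) for MYC targets, 6 and 6 for PRC1.6, 12 and 11 for coactivators and corepressors, 3 and 5 for MYC turnover, and 2 and 2 for other network genes. With that floor 1 MYC target was called in mRNA and 1 in RPF, since Ccnd2 was no longer tested, and 7 germline genes in mRNA, 5 higher and 2 lower, with 8 in RPF, 5 higher and 3 lower. With each library left out in turn, PRC1.6 calls in RPF were 1 to 2, the second (lower) appearing without EpiLC RPF replicate 3, and the log2 Myc to Mycn ratio changed by 3.55 to 4.04 in total RNA and 3.82 to 4.26 in RPF.

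Small changes turned sign, none of them called, and the cause was not tested. With the GC correction the mRNA change of Max was 0.047 and of Mnt -0.00074, and the TE change of Mycn was -0.031 and of Mga 0.00013. With each library left out in turn the TE change of Myc was -0.076 to 0.52, of Mycn -0.017 to 0.15 and of Mxd3 -0.50 to 0.16, the RPF change of Mycn -0.15 to 0.011 and the mRNA change of Max -0.20 to 0.17. The signs turned without EpiLC total RNA replicate 3 (Myc, Max), EpiLC RPF replicate 1 (Mycn and Mxd3 TE), EpiLC RPF replicate 3 (Mycn RPF), and ESC total RNA replicates 1 or 2 (Max).

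Replicate numbers were shared across groups, but same-numbered libraries did not deviate together (correlations of deviations from -0.117 to 0.119, not above 0.1 in every pair). With the replicate block the calls among the members were 3 higher (Myc, Mycl and Mxd4, with the limit on Mxd4 given above) and 0 lower in mRNA and in RPF. For TE there were 0, and all these calls were as without the block. The Myc to Mycn ratio changed by 3.77 and 3.98 (sign-flip exact p = 0.25, the smallest possible). The mRNA change of Max was 0.00026. With GC correction and replicate block the mRNA change of Max was 0.054, and the TE changes of Mycn, Mnt and Mga were -0.025, -0.0096 and 0.0023. Over all genes the block gave 30 higher and 23 lower TE calls in place of 16 and 14, and DESeq2 32 and 24. For mRNA 2685 and 1756 genes were called without the filter and 967 and 628 with the floor of 10 counts, in place of 1712 and 1140. Keeping every gene with a count moved the RPF median of all genes by 0.117. Depth limits Mxd4 (4 to 51 counts), ESC Myc and RPF values of Mxd3 most.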

Other observations

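The germline genes were divided by the presence of the E-box CACGTG in the RefSeq promoter window, a division made after their values were seen and given as counts. Of the 9 genes with the motif (Ddx4, Hormad1, Mael, Slc25a31, Stag3, Stk31, Sycp1, Sycp3 and Taf7l) 6 were called higher, 1 lower (Hormad1) and 2 neither way for mRNA, and 5, 1 and 3 for RPF. Of the 7 without it, 6 were tested, and for mRNA 2 were called higher (Tdrkh and Zcwpw1), 3 lower (Stra8, Tuba3a and Sohlh2) and 1 neither way, with 2 higher and 4 lower for RPF. The difference between the 2 sets was not tested. Shares among all tested genes were 14.6% (higher) and 9.70% (lower) in mRNA, with 15.4% and 10.6% in RPF. A germline gene high in only 1 cell type can pass the filter through those libraries. The counts of both sets thus carry no weight beside these shares. With the floor of 10 counts in every library, calls on the whole list dropped from 12 to 7 in mRNA and from 12 to 8 in RPF.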
